A study of Schizosaccharomyces pombe with 6 samples.

Results

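The ribosomal RNA (rRNA) and transfer RNA (tRNA) genes of fission yeast made up 220 of the 7268 gene rows in the count table. Members were the rows whose identifier starts with SPRRNA (49 rows), or with SPATRNA, SPBTRNA or SPCTRNA (171 rows together). RNA came from Schizosaccharomyces pombe wild-type cells (strain EHB7) and from cpn1∆ cells (strain EHB7577). Both strains are h+ and carry the alleles leu1-32, ura4-D18 and ade6-210 together with otr1R:ade6+, and the second also carries cpn1::HygMX6, the replacement of cpn1 with a hygromycin-resistance cassette. By the labels each genotype is a single strain, so that other differences between the strains cannot be told apart from the deletion. Cultures were in log phase in rich medium (YES) at 32 °C, with 3 biological replicates per genotype, and the comparison asks whether loss of Cpn1, a Caprin family protein, changes the transcriptome. The libraries were selected for polyadenylated RNA, so that what is described here is the residue of rRNA and tRNA that remained after that selection and was counted.

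The ribosome is built on 4 kinds of rRNA. The 28S, 5.8S and 5S rRNAs belong to the large subunit and the 18S rRNA to the small subunit. RNA polymerase I transcribes the 18S, 5.8S and 28S sequences as a single precursor from tandem repeats, from which the mature RNAs are cut. RNA polymerase III transcribes the 5S rRNA and the tRNAs, which carry amino acids to the ribosome. In fission yeast the 5S genes are scattered over the chromosomes rather than placed inside the rDNA repeats. Mature rRNAs and tRNAs have no long poly(A) tail, while short tails are added to aberrant or unprocessed forms by nuclear surveillance, in which Cid14 is the poly(A) polymerase and the exosome the nuclease.

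The label was checked against the annotated products in the ASM294v3 reference, a later build than that used for counting (ASM294v2). Of the 220 rows, 218 were found there. These were 36 rows for 5S, 3 for 5.8S, 5 for 18S and 3 for 28S rRNA, and 171 for tRNAs. The remaining 2 rows, SPRRNA.01 and SPRRNA.02, have no entry in that reference and are treated apart. For 5 tRNA rows the identifier says Asp and the reference says tRNA-Asn.

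Counts assigned to genes ranged from 26461217 to 32916622 per library. The deleted gene, cpn1, had 7543 to 9034 counts per wild-type library and 169 to 194 per cpn1∆ library, as labelled. Of 5812 features tested, 486 (8.36%) were higher and 595 (10.2%) lower in cpn1∆ cells at a false discovery rate (FDR) under 0.05. FDR values given below are edgeR quasi-likelihood p-values adjusted over all these features by the Benjamini-Hochberg method, and SE is the standard error of a log2 fold change (log2FC) of cpn1∆ over wild-type. The number that were higher came to 308 without wild-type replicate 2. Under this test, 6 members were higher and 0 were lower, out of the 24 that had enough counts to be tested. Each of the 24 was an rRNA row. One higher pair, SPRRNA.50 and SPRRNA.51, has identical counts, so that the 6 calls rest on at most 5 distinct rows. SPRRNA.52, also higher, exceeded them by 237 to 500 counts per library, beyond the 914 to 1553 counts that each held. How reads were divided among these 3 rows was not given, and they are not read as separate measurements. Of the 6, 3 were 5.8S and 3 were 5S rows. The 24 rows are those left by a filter on low counts, and their number is not read as a result. Beside the 0 lower rows, edgeR gave 1 row (SPRRNA.01) at an unadjusted p under 0.05, and DESeq2 and limma voom gave 0 lower rows at an FDR under 0.05. Without wild-type replicate 2 there were 6 lower rows, the 5 18S rows and SPRRNA.01, and without wild-type replicate 3 there were 2, SPRRNA.01 and SPRRNA.02.

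The tRNA genes gave no counts at all. All 171 nuclear tRNA rows were at 0 in every one of the 6 libraries, 56 with the prefix SPA, 68 with SPB and 47 with SPC. The rows cover 20 amino acids by their identifiers, from 13 rows each for Arg, Leu and Ser to 3 each for Cys and Trp. A count of 0 allows up to 3 counts, which is 0.0919 to 0.113 CPM (counts scaled to a common total with the TMM-scaled library sizes) in a single library and 0.0164 CPM over the 6 libraries together. These limits cover counting error only. No change between genotypes could be measured for tRNAs.

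Other short RNAs in the same table did give counts. Of 25 mitochondrial tRNA rows, which are not members, 13 had a count in at least 1 library and 12 were at 0. None of these rows (0 of 25) had counts in every library, and 17 averaged under 1 count per library. Of 64 rows annotated as small nucleolar RNAs, 29 had counts, 25 of them in every library, and of 6 small nuclear RNA rows 5 had counts in every library. Among protein-coding genes 6.13% of 5106 rows were at 0 in all libraries, and among all rows that are not members 13.1% of 7048. A further 254 rows carry identifiers starting with ENSRNA, for which the reference used here gives no product or place, and 221 of them were at 0. In the ASM294v3 annotation, 169 of the 171 tRNA genes overlapped no other feature of the count table that could be placed there. Of the other 2, SPBTRNAGLU.08 was wholly covered by the non-coding RNA SPNCRNA.1669 and SPATRNATYR.01 over 95.2% of its length by SPAC105.03c, both on the opposite strand. Rows that could not be placed, such as the ENSRNA rows, are not part of this count, and their part in the tRNA zeros was not tested.

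Ribosomal RNA was present in every library at about 1% of all counts. The 49 SPRRNA rows together held 1.42%, 0.921% and 1.05% of the counts in wild-type replicates 1, 2 and 3, and 1.08%, 1.17% and 1.14% in cpn1∆ replicates 1, 2 and 3. Wild-type replicate 1 held the most residual rRNA and wild-type replicate 2 the least, so that the wild-type libraries enclosed the cpn1∆ libraries. In CPM, the mean sum was 11387 ± 2547 for wild-type libraries and 11207 ± 371 for cpn1∆ libraries (SD, n = 3 libraries per genotype), a difference far smaller than the spread of the wild-type libraries. The 28S rows made up 75.7% to 76.9% of the rRNA counts in wild-type libraries and 77.2% to 80.1% in cpn1∆ libraries, and the 18S rows 21.8% to 22.8% and 18.1% to 21.1%. The 5.8S rows came to at most 1.43% of the rRNA counts and the 5S rows to at most 0.134%. These shares are of counts, not divided by the length of the RNA.

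**Figure D1:**
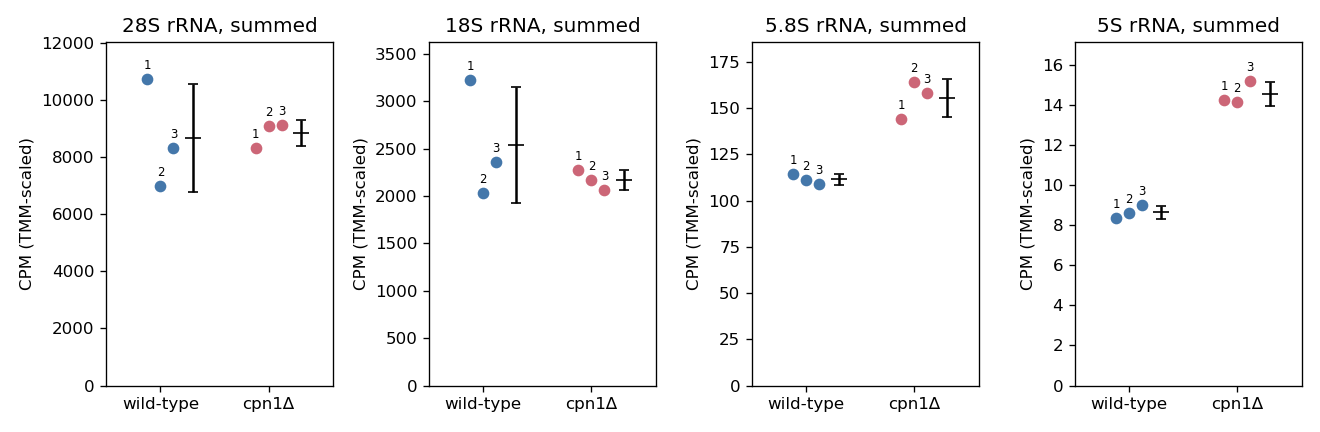
Summed CPM of the 28S, 18S, 5.8S and 5S rRNA rows (vertical axes, linear from 0) in each wild-type (blue) and cpn1∆ (red) library, with the replicate number above each point and the mean ± SD as a black bar. The genotypes overlap for 28S and 18S, where wild-type replicate 1 is highest at 10730 and 3228 CPM, and do not overlap for 5.8S and 5S.

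The 28S rRNA, which forms the catalytic core of the large subunit, did not differ beyond the spread between libraries. Summed over its 3 rows, the level was 10730, 6986 and 8324 CPM in wild-type replicates 1, 2 and 3, and in cpn1∆ replicates 1, 2 and 3 it was 8322, 9087 and 9122 CPM. All cpn1∆ libraries therefore lay within the range of the wild-type libraries. SPRRNA.47 and SPRRNA.48 had identical, fractional counts in each library, and those of SPRRNA.49 differed from them by at most 0.467%. The log2FC was 0.03 for each row (SE 0.11, edgeR FDR = 0.895 for SPRRNA.49). Rows this alike are read as 1 measurement. Its sign turned without wild-type replicate 2 (log2FC -0.11, edgeR FDR = 0.435 for SPRRNA.47, and 0.0558 to 0.992 over all alternatives).

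The 18S rRNA of the small subunit was at a lower mean in cpn1∆ cells, and the difference did not pass the test. Summed over its 5 rows, the level was 3228, 2036 and 2355 CPM in wild-type replicates 1, 2 and 3, and in cpn1∆ replicates 1, 2 and 3 it was 2279, 2169 and 2061 CPM. The 3 cpn1∆ libraries again lay within the wild-type range. SPRRNA.43, SPRRNA.44 and SPRRNA.46 differed from each other by at most 0.541% in any library, while SPRRNA.42 and SPRRNA.45, which are annotated with a shorter length (1390 and 1001 against 1842 bases in ASM294v3), held fewer counts. The log2FC of the 5 rows was between -0.23 and -0.22, with an SE of 0.11 (edgeR FDR = 0.201 for SPRRNA.46, the highest). The value rested on wild-type replicate 1. Without that library the log2FC was between -0.03 and -0.01, and without wild-type replicate 2 the 5 rows passed the test with a log2FC of -0.37 to -0.35 (edgeR FDR = 0.0137 to 0.0209, and 0.0137 to 0.915 over all alternatives).

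The 5.8S rRNA was higher in cpn1∆ cells at each of its 3 rows. This RNA pairs with the 28S rRNA in the large subunit and is cut from the same precursor. Summed over the rows it was at 114, 111 and 109 CPM in wild-type replicates 1, 2 and 3, and at 144, 164 and 158 CPM in cpn1∆ replicates 1, 2 and 3. Each cpn1∆ library was above each wild-type library, and the means were 111 ± 2.77 and 155 ± 10.3 CPM (SD, n = 3), a ratio of 1.40. By comparison, in 17.4% of all features tested the 3 cpn1∆ libraries were all above the wild-type libraries. The wild-type libraries, which differed so widely in 28S and 18S counts, were within a few CPM of each other here.

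SPRRNA.52 had the highest 5.8S level, with 1198.73, 1320.91 and 1379.86 counts in the wild-type and 1678.16, 2046.16 and 2053.39 in the cpn1∆ libraries. Its log2FC was 0.52 (SE 0.05, edgeR FDR = 6.24e-06). SPRRNA.50 and SPRRNA.51, which have the same counts as each other, had a wild-type mean of 33.9 ± 1.05 CPM and a cpn1∆ mean of 46.6 ± 3.38 CPM (SD, n = 3). Their log2FC was 0.46 (SE 0.06, edgeR FDR = 6.79e-05). The increase of the 3 rows is below the 2-fold threshold of the study. It passed the test under each of the 17 alternative settings, with a log2FC between 0.42 and 0.56. The 3 rows carry fractional counts and are not read as separate measurements.

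SPRRNA.52 also held counts beyond those of SPRRNA.50. This surplus was 285, 237 and 337 counts in wild-type replicates 1, 2 and 3 and 445, 498 and 500 counts in cpn1∆ replicates 1, 2 and 3. Scaled by library, its mean was 9.62 ± 1.79 CPM for wild-type and 15.6 ± 0.288 CPM for cpn1∆ libraries (SD, n = 3), again with no overlap. The surplus of the 28S row SPRRNA.49 over SPRRNA.47, taken in the same way, was 12.7 ± 3.54 and 10.9 ± 2.18 CPM (SD, n = 3) and overlapped. That of the 18S row SPRRNA.46 over SPRRNA.43 had a wild-type mean of 0.624 ± 0.298 CPM and a cpn1∆ mean of 1.75 ± 0.903 CPM (SD, n = 3) and did not overlap, with 0.837 CPM in the highest wild-type and 0.853 CPM in the lowest cpn1∆ library. A surplus with no overlap was thus not particular to 5.8S.

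**Figure D2:**
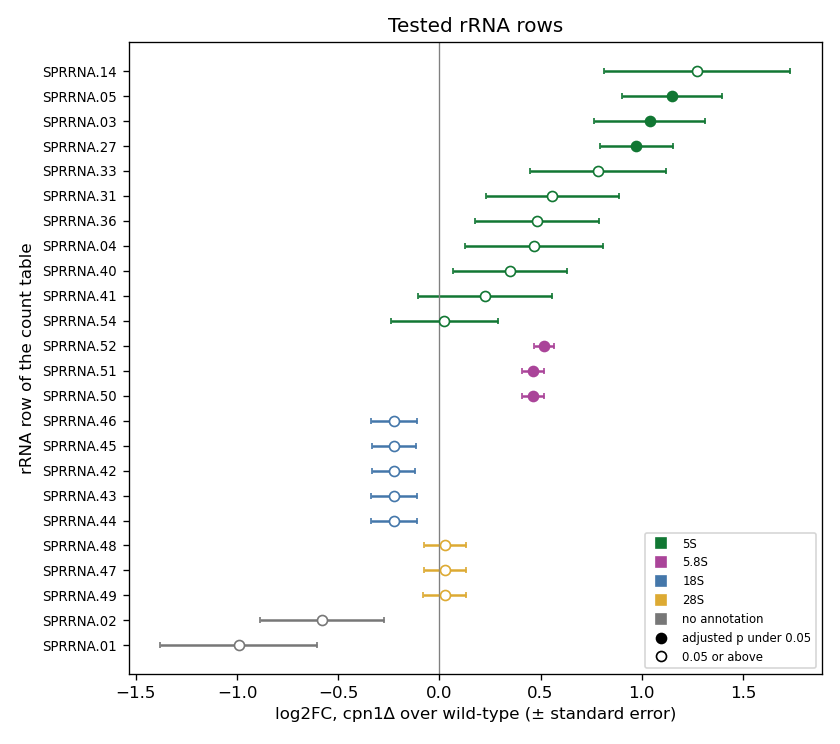
Log2FC of cpn1∆ over wild-type (horizontal axis) with its standard error for the 24 rRNA rows that were tested, coloured by RNA class, filled where the adjusted p was under 0.05. The 5.8S rows and 3 of the 5S rows are filled, the 18S rows cluster near -0.22 and the 28S rows near 0.03.

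Ratios within a library do not depend on how the libraries were scaled. The 28S rows held 3.32, 3.43 and 3.53 counts for each 18S count in wild-type replicates 1, 2 and 3, and 3.65, 4.19 and 4.43 in cpn1∆ replicates 1, 2 and 3. The genotypes did not overlap, but cpn1∆ replicate 1 was closer to the wild-type libraries than to the other cpn1∆ libraries. For 1000 counts of 28S there were 10.6, 15.9 and 13.1 counts of 5.8S in the wild-type and 17.3, 18.1 and 17.3 in the cpn1∆ libraries. For 1000 counts of 18S there were 35.4, 54.7 and 46.1 counts of 5.8S in the wild-type and 63.3, 75.7 and 76.7 in the cpn1∆ libraries. Each cpn1∆ library was thus above each wild-type library in these ratios, by a factor of 1.33 for 5.8S to 28S and of 1.58 for 5.8S to 18S between the means. The lowest 5.8S ratios were those of wild-type replicate 1, in which the 28S and 18S counts were high. The ratios are values of what was counted after the selection and are not a measure of how much mature rRNA the cells hold. Whether the counted rRNA carried a poly(A) tail was not tested.

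**Figure D3:**
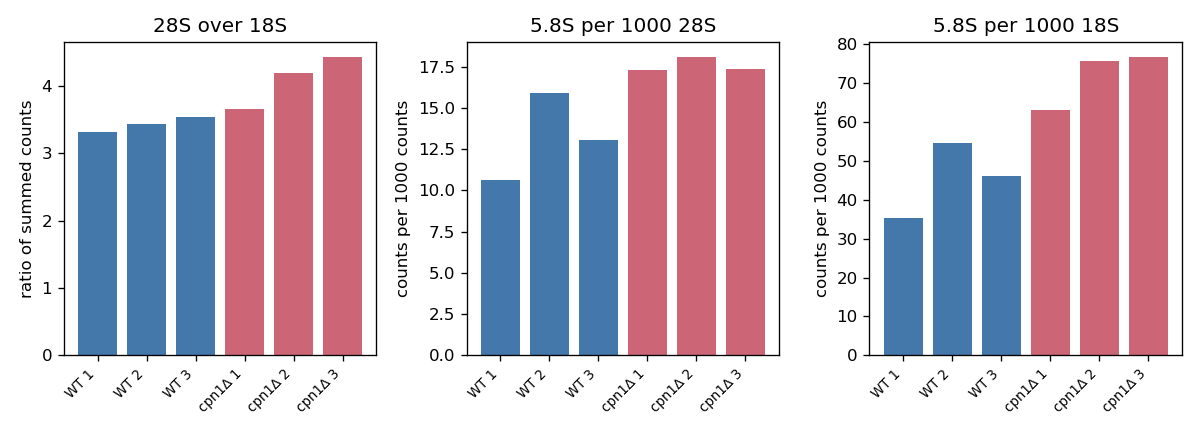
Ratios of summed counts in each library, with bars from 0, for 28S over 18S, for 5.8S per 1000 counts of 28S and for 5.8S per 1000 counts of 18S (vertical axes). The 3 cpn1∆ bars (red) are above the 3 wild-type bars (blue) in each panel, with the smallest gap between wild-type replicate 3 at 3.53 and cpn1∆ replicate 1 at 3.65 for 28S over 18S.

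The 5S rRNA genes were counted at a very low level, and their sum was higher in cpn1∆ cells. Over all 36 rows it was at 8.36, 8.61 and 9.01 CPM in wild-type replicates 1, 2 and 3, and at 14.3, 14.2 and 15.2 CPM in cpn1∆ replicates 1, 2 and 3. The means were 8.66 ± 0.328 and 14.6 ± 0.586 CPM (SD, n = 3), a ratio of 1.68 with no overlap between the genotypes. In counts, the sum was only 221 to 287 per wild-type and 410 to 497 per cpn1∆ library. Of the 36 rows, 13 had no count in any library, 5 had counts in some libraries and 18 in all. The 23 rows with counts were at 0 to 2.87 CPM in single libraries. By annotated length in ASM294v3, the highest 5S row per length reached 7.82 CPM per kilobase in wild-type cells. The 5.8S rows were at 206 to 264, the 18S rows at 258 to 346 and the 28S rows at 829 to 833 CPM per kilobase. These are values per row. How reads of the tandem repeats were divided among their rows was not given, so the classes are not compared per gene copy.

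SPRRNA.27 was the 5S row with the most counts, 35, 40 and 50 in the wild-type and 75, 90 and 89 in the cpn1∆ libraries. Each cpn1∆ library was above each wild-type library, and the mean rose from 1.39 ± 0.157 to 2.74 ± 0.132 CPM (SD, n = 3). The log2FC was 0.97 (SE 0.18, edgeR FDR = 0.00217). It carries whole counts in every library, unlike SPRRNA.05 and SPRRNA.03. SPRRNA.05, which had the next largest number of counts, held 32, 20 and 32.12 counts in the wild-type and 49, 74.12 and 70 in the cpn1∆ libraries. The genotypes did not overlap, and its log2FC was 1.15 (SE 0.25, edgeR FDR = 0.00524). SPRRNA.03 had 12.42, 19.2 and 14.08 counts in the wild-type and 34.26, 30.25 and 32 in the cpn1∆ libraries, again apart. Its log2FC was 1.04 (SE 0.27, edgeR FDR = 0.0173). The 3 rows that rose held 29.4% to 43.8% of the 5S counts of a library. Past the 2-fold threshold were SPRRNA.05 and SPRRNA.03, 2 of the 24 tested members, against 0.31% of all features tested. These rows held 12.42 to 74.12 counts per library, where a log2FC is noisy, and the share is not read as an enrichment. The study lists SPRRNA.05 among its upregulated transcripts at this threshold, but not SPRRNA.03. The call of SPRRNA.03 was lost when wild-type replicate 1, wild-type replicate 3 or cpn1∆ replicate 1 was left out (edgeR FDR = 0.0595 to 0.0652, and 0.0159 to 0.0652 over all alternatives).

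The other 8 tested 5S rows did not pass the test. The largest log2FC among the 24 tested rows was that of SPRRNA.14, with 4, 12 and 3 counts in the wild-type and 21, 13 and 14 in the cpn1∆ libraries. It was 1.27 (SE 0.46, edgeR FDR = 0.0706), and it passed with limma voom and, in edgeR, without wild-type replicate 2 (adjusted p = 0.0401 and 0.0265, and 0.0265 to 0.245 over all alternatives). Only 1 of its wild-type libraries reached the minimum count of 10, so that the row was kept through its cpn1∆ libraries and these p-values are no support for a difference. For SPRRNA.33 the log2FC was 0.78 (SE 0.33, edgeR FDR = 0.123). It held 5.5 counts in wild-type replicate 1, and SPRRNA.04 held 9.2 in wild-type replicate 2. Both values are under the minimum of 10, so these rows too were kept with the help of their cpn1∆ libraries. At the other end SPRRNA.54, with 22, 34 and 22 counts in the wild-type and 23, 32 and 27 in the cpn1∆ libraries, had a log2FC of 0.02 (SE 0.27), and SPRRNA.41 of 0.23 (SE 0.33). The tested 5S rows thus ranged from values near 0 to more than 2-fold, with wide errors at these counts. The median log2FC of the 11 tested 5S rows was 0.56, beside 0.01 over all features tested, and is a description only, since a row could pass the count filter through its cpn1∆ libraries. A further 12 rows with 4.88 to 64 counts over the 6 libraries were not tested. Together they were at 1.28, 1.04 and 1.26 CPM in wild-type replicates 1, 2 and 3 and at 2.63, 1.86 and 2.54 CPM in cpn1∆ replicates 1, 2 and 3, which did not overlap. Over the 23 rows with counts, 21 had a higher mean in cpn1∆ cells, beside 3038 of 5812 features tested with a log2FC above 0. In 10 of the 23 rows the cpn1∆ libraries were all above the wild-type libraries, beside 17.4% of all features tested. Both tallies are a description only. The rows tallied include the 12 untested rows, whereas the features beside them had passed the count filter. They also include SPRRNA.14, SPRRNA.33 and SPRRNA.04, which were kept with the help of their cpn1∆ libraries. Of the 5S rows, 14 carry fractional counts, and whether they share reads was not tested, so the rows are not read as independent.

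**Figure D4:**
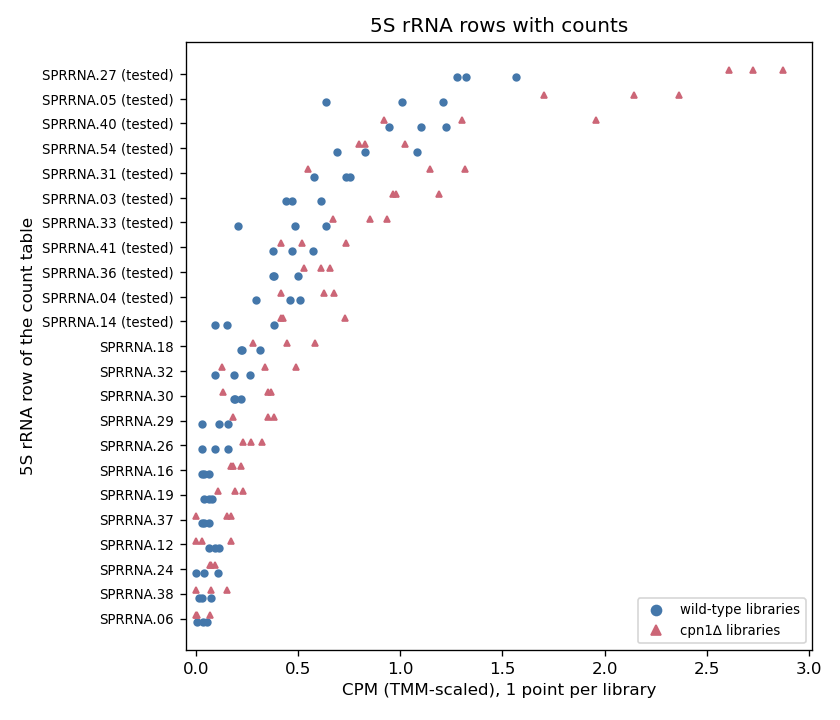
CPM (horizontal axis, linear) of the 23 5S rRNA rows with counts, ordered by their summed counts, with wild-type libraries as blue circles and cpn1∆ libraries as red triangles. The triangles lie apart from the circles in 10 rows. Among these are the called rows SPRRNA.27, SPRRNA.05 and SPRRNA.03, and SPRRNA.14, SPRRNA.33 and SPRRNA.36, which were not called. The triangles of SPRRNA.54, SPRRNA.41 and SPRRNA.40 are mixed with the circles, and rows below SPRRNA.14 were too low to be tested.

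Whether a 5S row had counts went with the annotated length of the gene in ASM294v3. The 7 genes annotated with 119 bases (SPRRNA.10, SPRRNA.11, SPRRNA.17, SPRRNA.20, SPRRNA.28, SPRRNA.34 and SPRRNA.39) were all at 0. Of the 25 longer genes, from 123 to 440 bases, 21 had counts, and of the 4 shorter genes 2 had. The 36 genes overlapped no other placed feature of the count table there. The 11 tested rows were placed between 22 neighbouring features, of which 17 were themselves tested. Of the 17, 0 were higher with edgeR, also at an unadjusted p under 0.05 and with DESeq2 and limma voom. With edgeR 1 was lower. Over all features tested 8.36% were higher and 10.2% lower, so that with 17 neighbours these counts are not read as a result. SPNCRNA.1190, a non-coding RNA beside SPRRNA.03, fell by 0.38 on the log2 scale (SE 0.12, edgeR FDR = 0.0445), and with DESeq2 it was not called. For 5 of the 11 rows a neighbour was a tRNA gene with no counts, as for SPRRNA.05, which follows the initiator methionine tRNA gene imt07 (SPCTRNAMET.07). The protein-coding neighbours of SPRRNA.27 were rpt2, which encodes a proteasome ATPase, with a log2FC of -0.06 (SE 0.03), and maa1, with a log2FC of -0.05 (SE 0.03).

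SPRRNA.01 and SPRRNA.02, which the reference does not describe, stood apart in wild-type replicate 1. SPRRNA.01 had 2145 counts in that library, 814 and 630 in wild-type replicates 2 and 3, and 523, 628 and 760 in the cpn1∆ libraries. SPRRNA.02 had 207 counts in wild-type replicate 1, 110 and 90 in wild-type replicates 2 and 3, and 101, 86 and 95 in those of cpn1∆ cells. The other wild-type libraries overlapped the cpn1∆ libraries. The log2FC of SPRRNA.01 was -0.99 (SE 0.39, edgeR FDR = 0.0938, and 0.00401 to 0.442 over all alternatives) and came to -0.15 without wild-type replicate 1. That of SPRRNA.02 was -0.58 (SE 0.31, edgeR FDR = 0.217, and 0.0316 to 0.886 over all alternatives). The same library had the highest 28S and 18S sums, but not the highest 5S sum.

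Among genes whose products make or process these RNAs, more were lower than higher in cpn1∆ cells. Over all features the split was less uneven, with 595 lower and 486 higher. Of 75 genes in 5 lists, 69 were matched by symbol and 64 were tested, of which 1 was higher and 12 were lower, beside the 8.36% and 10.2% of all features. The matched genes that were not tested, rpa49, rrn5, rrn7, rpc17 and sfc7, were at 0 CPM in every library. Rows of protein-coding genes on these lists could thus be at 0 in this table, as the tRNA rows were, and the cause was not tested. Of 8 tested RNA polymerase I genes 3 were lower, among them nuc1, the gene of the largest subunit, with a log2FC of -0.17 (SE 0.03, edgeR FDR = 0.00132). The gene rpa34 was at 0.19 (SE 0.16), which did not pass. Of 12 RNA polymerase III genes 3 were lower, among them rpc2, the gene of the second largest subunit, with a log2FC of -0.26 (SE 0.03, edgeR FDR = 2.1e-05). The 1 higher gene was rpc11, at 0.12 (SE 0.04, edgeR FDR = 0.0494), which is outside the rule for named genes and was chosen after its values were seen. It was not called with DESeq2, limma voom or the replicate block. The gene rpc31 was at 0.13 (SE 0.05, edgeR FDR = 0.0617) and did not pass, but was called with the replicate block (edgeR FDR = 0.0253). Of 10 genes of polymerase III transcription factors and their regulator 0 passed with edgeR, DESeq2 or limma voom, and 1, sfc1, was at an unadjusted p under 0.05 with edgeR. The log2FC of sfc1, a subunit of TFIIIC, was 0.10 (SE 0.04) and that of brf1, a subunit of TFIIIB, was -0.07 (SE 0.07).

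Of 20 genes of tRNA maturation and export 2 were lower, a share near the 10.2% of all features. These were los1, which encodes a tRNA exportin, with a log2FC of -0.25 (SE 0.03), and the tRNA ligase gene trl1, with a log2FC of -0.22 (SE 0.04). Both were named after their values were seen. The largest values on this list were those of sen15 and rpr2, at 0.37 (SE 0.24) and 0.32 (SE 0.15), and neither passed. Of 14 nuclear surveillance genes 4 were lower, beside the same 10.2%, with the largest log2FC in mtr4, the exosome helicase gene, at -0.26 (SE 0.03) and in dis3, the gene of an exosome nuclease, at -0.25 (SE 0.03). The poly(A) polymerase gene cid14, also chosen after its values were seen, was at -0.01 (SE 0.03) and did not pass.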

How the data were processed

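RNA-seq of polyA-selected RNA was analysed from 3 wild-type and 3 cpn1∆ libraries. According to the submitters' processing notes and the study's methods, the authors removed adapters with Cutadapt 4.8, aligned reads with STAR 2.7.10b to ASM294v2 and counted them with featureCounts. The authors deposited expected counts per feature, not normalized, in which 760 of 7268 rows (25 of the members) hold fractions of a count. Settings for strand, and for reads with more than 1 place, were not given in the sources used here, and counts were rounded to whole numbers for testing. Class sums used the unrounded counts. The row named other, with 0.608% to 0.647% of the counts, was left out.

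Features were kept by filterByExpr (minimum count 10), scaled with TMM and tested with edgeR 4.0.16 in R 4.3.3 (glmQLFit with legacy set to FALSE, glmQLFTest), with genotype as the only term and Benjamini-Hochberg adjustment over all features tested. A standard error was taken as the size of a log2FC over the root of its F statistic. Sums over classes of members were given no test. The fit was tested on simulated data. Names, neighbours and lengths come from ASM294v3, where 6846 identifiers matched, and no coordinates or sequences are given because the builds differ. Replicates differed by more than sampling noise (chi-square per gene of 4.68 to 11), and p-values measure the spread between cultures of 1 strain per genotype. Named members are those past an FDR of 0.05, the 10 rRNA rows with the highest CPM, the 5 tested rows with the largest absolute log2FC and their neighbours. Other SPRRNA rows given by name, among them SPRRNA.02, SPRRNA.33, SPRRNA.41 and SPRRNA.54, were chosen after their values were seen. List genes were matched by current symbol, and up to 2 per list with the largest absolute log2FC are named. The alternatives were other scalings, filters and tests (DESeq2 1.42.0, limma voom 3.58.1), unrounded counts, the replicate number as a block and each library left out in turn. Members and lists were chosen with earlier results of these data known.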

Additional observations from a re-analysis of the deposited data

How the results depend on the processing

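The calls of SPRRNA.05, SPRRNA.27, SPRRNA.50, SPRRNA.51 and SPRRNA.52 held under each of 17 alternatives. The number of higher members was 5 to 7 over all alternatives, and the number of lower members was 0 to 6 with 1 library left out. Over all features, 308 to 438 were higher with 1 library left out. The replicate numbers showed no clear pairing over all features (correlations of same-numbered deviations -0.05, 0.05 and 0.09). Such correlations cannot decide on pairing at single rows, and the study processed the replicates of both genotypes in parallel. Over all features, 556 were higher and 670 lower with the replicate number as a block, beside 486 and 595 without it. With the replicate number as a block 4 members were lower, namely SPRRNA.01, SPRRNA.02, SPRRNA.42 and SPRRNA.45, and 6 were higher. With the block the gene lists again had 1 higher and 12 lower genes, but the higher gene was rpc31 in place of rpc11. Without a low-count filter SPRRNA.16 was also called (log2FC 2.02, edgeR FDR = 0.0317). It held only 1, 2 and 1 counts in the wild-type and 5, 7 and 6 in the cpn1∆ libraries. At such counts the call is no support for a difference. The summed log2 ratio of all rRNA was -0.02, and -0.78 over rows with whole counts only. These hold no 28S, 18S or 5.8S row, so that those 3 sums had no such value. They do hold SPRRNA.01 and SPRRNA.02, which were highest in wild-type replicate 1, with 2145 and 207 counts. Over the 5S rows with whole counts the log2 ratio was 0.74, beside 0.75 over all 5S rows. For the sum of SPRRNA.01 and SPRRNA.02 the log2 ratio was -0.99, and -1.33 to -0.14 with 1 library left out. With 1 library left out, the log2FC turned sign in rows that did not pass the test. It was -0.13 to 0.23 for SPRRNA.54, -0.042 to 0.40 for SPRRNA.41, and -0.11 to 0.21 for SPRRNA.47, SPRRNA.48 and SPRRNA.49. The causes were not tested. Depth limits the 5S rows, at 0 to 90 counts per library, and at 0 counts no change could be measured for tRNAs.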
